A study of Homo sapiens with 24 samples.

Results

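The insulin-like growth factor binding proteins IGFBP1 to IGFBP7 and the receptor IGF1R were followed in H1 cells during neural induction. These are an established line of human embryonic stem cells. The family was chosen by gene name, as every row of the deposited expression table annotated to these 8 genes, of 17760 named genes in all. Of the 8, 7 had a row, and IGFBP1 was not analysed here. The 7 genes held 9 rows with 8 distinct measurements. IGFBP3 had 2 of them, one for transcript NM_000598 and one for NM_001013398, while both rows of IGFBP5 carried the same values and were counted once.

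All groups were H1 cells grown on Matrigel and given dorsomorphin, also called compound C, a small molecule that inhibits BMP type I receptors and AMPK. RNA was taken 0, 12, 24, 36, 48 and 72 h after the start, and 4 arrays (replicates 1 to 4) were hybridised for each time, 24 in all. Cells at 0 h had reached confluency in mTeSR stem cell medium, and at the start they were moved to a medium with knockout serum replacement. The study followed expression while the cells were turned towards neural stem cells. There were no untreated cells at later times, so the effects of time, medium and compound cannot be told apart. The labels do not say that replicates were separate cultures, and p-values therefore cover only how these arrays differ among themselves, possibly for technical reasons.

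IGF binding proteins are secreted carriers that hold IGF1 and IGF2 and control how much of either ligand reaches IGF1R, the tyrosine kinase receptor through which both act. Proteases that cut the carriers release the ligand again. In human embryonic stem cells, signalling through IGF1R is known to promote survival and self-renewal. IGFBP2 to IGFBP6 bind the ligands tightly, with IGFBP6 preferring IGF2, whereas IGFBP7 binds them only weakly.

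The members did not move as 1 group. The genes whose levels changed over the course were IGFBP3 and IGFBP5, which went up, and IGFBP4 and IGFBP6, which went down. IGFBP3 had its highest levels at 36 and 48 h and IGFBP5 at 48 and 72 h. IGFBP4 fell within the first 12 h, and IGFBP6 was first called lower at 48 h. A moderated F test over the 6 times passed for 4 of the 6 members tested, against 48.9% of all 10215 genes tested. Its adjusted p was 5.48e-05 for IGFBP3, 5.94e-08 for IGFBP4, 0.000105 for IGFBP5 and 0.000147 for IGFBP6, but 0.543 for IGFBP2 and 0.374 for IGFBP7. All adjusted p-values are from limma with Benjamini-Hochberg adjustment over all genes tested.

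The bases before the start of these 4 genes are shown because their transcripts changed in opposite directions. Each line is the 250 bases just before the gene's start from RefSeq on build GRCh38.p14, read 5′ to 3′ on the gene's own strand. They lie at chr7:45921273-45921522 on the minus strand for IGFBP3, chr2:216695550-216695799 on the minus strand for IGFBP5, chr17:40443200-40443449 on the plus strand for IGFBP4 and chr12:53097417-53097666 on the plus strand for IGFBP6. Capitals mark 2 motifs on either strand. One has the letters TATAAA, a common form of the TATA box. Another, known as the core of SP1 sites, has the letters GGGCGG. On the opposite strand it appears as its reverse complement.
IGFBP3: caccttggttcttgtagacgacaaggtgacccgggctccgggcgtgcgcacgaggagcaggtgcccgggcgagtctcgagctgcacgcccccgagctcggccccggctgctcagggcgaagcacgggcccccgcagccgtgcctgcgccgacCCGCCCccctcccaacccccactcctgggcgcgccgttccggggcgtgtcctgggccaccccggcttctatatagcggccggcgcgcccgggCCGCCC
IGFBP5: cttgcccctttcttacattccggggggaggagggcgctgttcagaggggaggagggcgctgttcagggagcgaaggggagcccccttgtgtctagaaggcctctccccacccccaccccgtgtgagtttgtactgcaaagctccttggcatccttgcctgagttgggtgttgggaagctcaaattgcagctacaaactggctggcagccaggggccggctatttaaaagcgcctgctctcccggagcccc
IGFBP4: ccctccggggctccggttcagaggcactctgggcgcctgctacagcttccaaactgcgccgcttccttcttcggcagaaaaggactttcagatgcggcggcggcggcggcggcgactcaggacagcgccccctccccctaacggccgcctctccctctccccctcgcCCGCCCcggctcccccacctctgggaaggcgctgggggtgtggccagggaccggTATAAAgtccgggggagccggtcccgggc
IGFBP6: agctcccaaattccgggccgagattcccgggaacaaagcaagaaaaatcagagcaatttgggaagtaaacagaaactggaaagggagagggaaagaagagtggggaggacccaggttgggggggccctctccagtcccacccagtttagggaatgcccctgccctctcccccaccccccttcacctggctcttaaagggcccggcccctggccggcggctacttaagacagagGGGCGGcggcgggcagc

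TATAAA stood only in the IGFBP4 window of these 4, at position -29 from the start, and 10.7% of 35116 such windows hold it on either strand. Only these exact letters were sought. Variant forms, such as the tatata near the end of the IGFBP3 window, were not marked. GGGCGG was found at 2 places before IGFBP3, at 1 each before IGFBP4 and IGFBP6 and at 0 before IGFBP5, and 42.6% of all windows hold it. The windows also differed in base composition. G and C made up 76% of the IGFBP3 window and 71.6% of the IGFBP4 window, but 61.2% of each of the other 2, beside a median of 58% over all windows. The IGFBP3 window held 32 CpG dinucleotides and the IGFBP4 window 24, against 8 for IGFBP5 and 9 for IGFBP6. The median window had 11. CACGTG (an E box) and ACGTG (the core of hypoxia response elements) on either strand had 0 matches in these 4 windows, and 6.34% and 18.5% of all windows hold them. The rising pair and the falling pair were thus each made of 1 window rich in CpG and 1 near the median, and a match or its absence is only a description of these letters. Of the other members, IGFBP2 had 3 windows, with GGGCGG at 1 place in each of 2 of them, and IGF1R had 1 window with 48 CpG dinucleotides. In the RefSeq annotation IGFBP2 and IGFBP5 are neighbours on chromosome 2, and IGFBP1 and IGFBP3 on chromosome 7.

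Values are log2 signals on an Illumina HumanHT-12 v4 bead array. Background was put at 7.10, the 99th percentile of 387 olfactory receptor measurements, and a gene was tested when above it on at least 4 arrays. That held for IGFBP2 to IGFBP7 but not for IGF1R. Between 9147 and 9411 genes lay above background on an array. Arrays of the same time correlated at r between 0.975 and 0.992 over all genes tested (36 pairs). The number of arrays limits the precision. Of 7 pluripotency markers with a row, all tested, 2 were higher and 4 lower at 72 h than at 0 h, with POU5F1 averaging 10.55 at 72 h and 12.36 at 0 h. Of 7 neural progenitor markers tested, 5 were higher at 72 h (PAX6 at 9.85, against 6.72 at 0 h), whereas SOX1 was below background on each of the 24 arrays. At 72 h against 0 h, 1 hepatic and endoderm marker and 1 amnion and trophoblast marker were lower, 1 neural crest marker was higher and 1 lower, and 0 of 3 neuronal markers passed. In bulk RNA, fewer cells of a type and less RNA per cell cannot be told apart.

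One array at each time deviated from the other 3 in the same way over the genes of the array, and this touches several members. These 6 arrays are replicate 2 at 0, 24 and 72 h and replicate 4 at 12, 36 and 48 h. On the first component of the deviations from the time means, computed without the family and carrying 27.0% of the variance, they scored -0.43 to -0.26, against -0.11 to 0.27 on the other 18. The set was found from the data and has no label, the cause was not tested, and results are given below with and without it. As its arrays were picked for deviating, p-values from fits that leave them out or treat them apart are not independent support for a change.

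IGFBP3, the main carrier of IGFs in blood, rose to a peak at 36 and 48 h and then fell back. The NM_000598 measurement read 7.73, 8.38, 7.75 and 7.87 on the 4 arrays at 0 h, 8.73, 8.69, 8.75 and 9.79 at 12 h, then 8.88, 10.56, 8.85 and 8.80 at 24 h. It read 10.16, 9.62, 10.17 and 11.28 at 36 h, 9.77, 9.68, 10.09 and 10.74 at 48 h, then 8.31, 8.32, 9.06 and 9.35 at 72 h. All arrays at 12 to 48 h thus lay above all 4 at 0 h, while 2 arrays at 72 h fell among those of 0 h. Against 0 h, the level was higher by 1.34 ± 0.36 on the log2 scale at 24 h (SE; 2.53-fold; adjusted p = 0.0215 by limma), 2.38 at 36 h (5.19-fold; adjusted p = 3.86e-05) and 2.14 at 48 h (4.40-fold; adjusted p = 9.4e-05). The difference was 1.06 at 12 h (adjusted p = 0.0827) and 0.82 at 72 h (adjusted p = 0.0748; 95% interval 0.09 to 1.56), which did not pass. Between 72 and 48 h IGFBP3 fell by 1.31 (adjusted p = 0.0256), with no overlap between the arrays of these times. By mean level the times ran 0, 72, 12, 24, 48 and 36 h from low to high, and each neighbouring pair in that order overlapped.

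The second IGFBP3 measurement, NM_001013398, followed the same course, with r = 0.97 between both over the 24 arrays. Its means were 7.56, 8.56, 8.63, 9.55, 9.40 and 8.21 at 0, 12, 24, 36, 48 and 72 h, with SDs of 0.17 to 0.56 (n = 4 each). It spread less within a time than NM_000598 at all times but 12 h, and it passed at every later time against 0 h. The changes were 1.01 at 12 h (adjusted p = 0.0171), 1.07 at 24 h, 2.00 at 36 h, 1.84 at 48 h and 0.65 at 72 h (adjusted p = 0.0457). It also rose between 36 and 24 h (0.92, adjusted p = 0.0176) and fell between 72 and 48 h (by 1.19, adjusted p = 0.00415). For NM_000598 the step between 36 and 24 h was 1.04 (adjusted p = 0.0522).

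The 6 deviating arrays held the highest NM_000598 value of their time at 5 of 6 times, the exception being 72 h. Without them the rise over 0 h was 1.06 at 24 h (adjusted p = 0.00139), 2.20 at 36 h, 2.06 at 48 h and 1.12 at 72 h (adjusted p = 9.7e-05). The 72 h level then passed, though the arrays left out were picked from these data. The fall between 72 and 48 h was then -0.94 (adjusted p = 0.00275). With all 24 arrays, the 24 h call ended without 24 h replicate 2 (0.91, adjusted p = 0.0807), 0 h replicate 1 (1.27, adjusted p = 0.055) or 0 h replicate 3 (1.28, adjusted p = 0.0624). The call of 72 h against 48 h ended without 72 h replicate 1 (-1.16, adjusted p = 0.107), 72 h replicate 2 (-1.17, adjusted p = 0.108), 48 h replicate 3 (-1.31, adjusted p = 0.0669) or 48 h replicate 4 (-1.09, adjusted p = 0.0804). Smooth muscle markers also moved: 3 of 4 tested were higher at 12, 24 and 36 h than at 0 h. Their summed signal (linear scale) ran 4849 to 8492 at 0 h, 12795 to 18980 at 12 h, 11730 to 14340 at 24 h, 8826 to 14972 at 36 h, 5558 to 9464 at 48 h and 3717 to 5835 at 72 h. At 48 h, 1 of the 4 was called higher, MYH11 (0.44, adjusted p = 0.0132 by limma). The others changed by 0.77 (ACTA2), 0.17 (TAGLN) and -0.01 (CNN1). The sum at 48 h overlapped that of 0 h, and its brightest gene, TAGLN, averaged 12.66 at 48 h and 12.49 at 0 h. At 72 h ACTA2 was called higher (0.97) and TAGLN lower (-0.82) than at 0 h. DES, a further gene of the list, was not tested and lay below background on all 24 arrays. The markers' part in the IGFBP3 result was not tested.

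IGFBP5, a carrier that also binds the extracellular matrix, was higher at 24, 48 and 72 h than at 0 h. It read 7.97, 8.11, 6.85 and 8.04 at 0 h, 7.80, 7.75, 9.44 and 8.32 at 12 h, then 8.91, 9.32, 8.99 and 9.71 at 24 h. At the later times it read 8.38, 8.74, 7.91 and 9.09 at 36 h, 9.27, 9.92, 9.25 and 9.64 at 48 h, then 9.76, 10.45, 9.38 and 9.21 at 72 h. The arrays at 24, 48 and 72 h all lay above those at 0 h, while those at 12 and 36 h overlapped them. Replicate 3 at 0 h was below background, and the other 23 arrays were above it. The rise over 0 h was 1.49 ± 0.33 at 24 h (SE; 2.81-fold; adjusted p = 0.00558 by limma), 1.78 at 48 h (3.43-fold; adjusted p = 0.000293) and 1.96 at 72 h (3.89-fold; adjusted p = 4.55e-05).

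The mean of IGFBP5 was lower at 36 h than at the times on either side, though no step passed the test. It was 9.23 ± 0.36 at 24 h, 8.53 ± 0.50 at 36 h and 9.52 ± 0.32 at 48 h (SD, n = 4 each). The step between 36 and 24 h was -0.70 (adjusted p = 0.151) and that between 48 and 36 h 0.99 (adjusted p = 0.0729), where the arrays of 48 h all lay above those of 36 h. Against 0 h the differences at 12 h (0.59, adjusted p = 0.334) and 36 h (0.79, adjusted p = 0.102) did not pass. By mean level the order of times was 0, 12, 36, 24, 48 and 72 h from low to high, with overlap between all neighbours. Without the 6 deviating arrays the change at 72 h was 1.83 (adjusted p = 0.000554). Of 4 endothelial markers tested, 2 were higher at 72 h than at 0 h (VWF, 4.04, and TEK, 0.56) and 1 was lower (KDR, -1.35). The list's summed signal was 3890 to 5254 at 72 h and 1704 to 2088 at 0 h. PECAM1 and CDH5 lay below background on all 24 arrays. The endothelial markers' part in the IGFBP5 result was not tested.

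**Figure D1:**
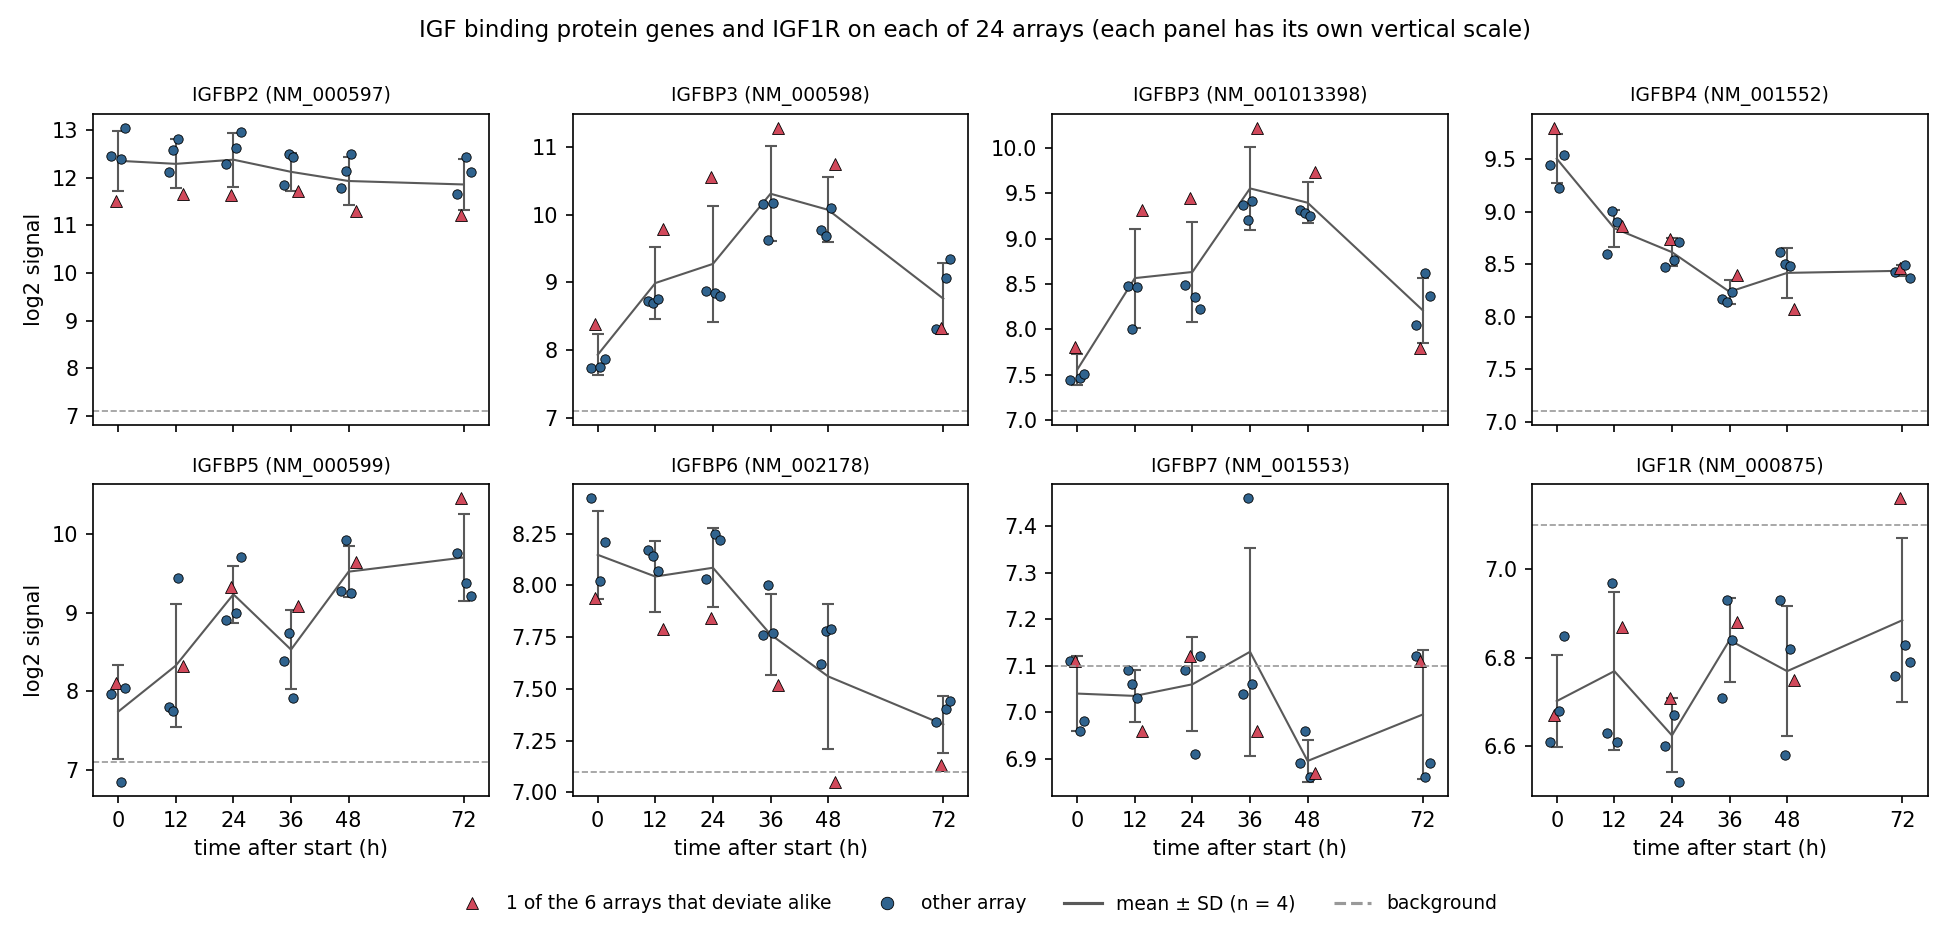
Log2 signal (vertical axis) against hours after the start (horizontal axis) for the 8 measurements of the family, with a point per array, the mean and SD of 4 arrays as line and bars, red triangles for the 6 deviating arrays and the background of 7.10 dashed. IGFBP3 peaks at 36 and 48 h, IGFBP5 ends high, IGFBP4 and IGFBP6 end low, and IGFBP7 and IGF1R stay around or below background.

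IGFBP4, a carrier known for holding IGFs away from their receptor, was called lower at each of the 5 later times. It read 9.45, 9.80, 9.23 and 9.54 at 0 h, 8.60, 9.01, 8.90 and 8.86 at 12 h, then 8.47, 8.74, 8.54 and 8.71 at 24 h. It read 8.17, 8.14, 8.24 and 8.40 at 36 h, 8.62, 8.50, 8.48 and 8.07 at 48 h, then 8.43, 8.46, 8.49 and 8.37 at 72 h. At each of the 5 later times all 4 arrays lay below all 4 at 0 h. Against 0 h it fell by 0.66 ± 0.12 at 12 h (SE; 1.58-fold; adjusted p = 0.00121 by limma), by 0.89 at 24 h, by 1.26 at 36 h (2.40-fold; adjusted p = 5.76e-08), by 1.09 at 48 h and by 1.07 at 72 h (2.09-fold; adjusted p = 1.4e-07). The lowest mean was 8.24 ± 0.11 at 36 h (SD, n = 4), followed by 8.42 at 48 h, 8.44 at 72 h, 8.61 at 24 h, 8.84 at 12 h and 9.50 at 0 h. Only the step between the means at 12 and 0 h in that order had no overlap. The step between 36 and 24 h was -0.38 (adjusted p = 0.0353).

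That step, between 36 and 24 h, had no overlap between the arrays of these times, but its call ended in 6 omissions of 1 array. The adjusted p by limma was 0.0664 without 24 h replicate 2, 0.0545 without 24 h replicate 3 and 0.114 without 24 h replicate 4. It was 0.0941 without 36 h replicate 1, 0.0842 without 36 h replicate 2 and 0.0611 without 36 h replicate 3. The size of the step stayed between -0.43 and -0.33 over all such omissions. Each of the 5 calls against 0 h held when any 1 array of the times it compares was left out. Without the 6 deviating arrays the change at 72 h was -0.98 (adjusted p = 1.28e-06). The fibroblast marker list moved at these times too. Of its 3 tested genes, THY1, also a stem cell surface marker, was lower at each later time, whereas the collagen genes COL1A1 (0.87 at 24 h, 0.93 at 36 h and 1.00 at 48 h) and COL1A2 (0.43 at 48 h) were higher. The list's summed signal was 2892 to 4302 at 72 h and 5561 to 6316 at 0 h. THY1 averaged 9.56 at 72 h and 11.51 at 0 h, whereas the differences of COL1A1 (-0.19) and COL1A2 (-0.04) at 72 h did not pass. COL3A1, LUM, DCN and POSTN lay below background on all 24 arrays, and the list's part in the IGFBP4 result was not tested.

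IGFBP6, the carrier with a preference for IGF2, fell late. It read 8.42, 7.94, 8.02 and 8.21 at 0 h, 8.17, 8.14, 8.07 and 7.79 at 12 h, then 8.03, 7.84, 8.25 and 8.22 at 24 h. The later arrays read 7.76, 8.005, 7.77 and 7.52 at 36 h, 7.62, 7.78, 7.79 and 7.05 at 48 h, then 7.34, 7.13, 7.40 and 7.44 at 72 h. The arrays of 12, 24 and 36 h overlapped those of 0 h, and all arrays at 48 and 72 h lay below them. Replicate 4 at 48 h was below background. The fall was by 0.59 ± 0.15 at 48 h (SE; 1.50-fold; adjusted p = 0.00454 by limma) and by 0.82 at 72 h (1.77-fold; adjusted p = 8.52e-05). The change of -0.38 at 36 h did not pass (adjusted p = 0.0695), and no step between neighbouring times passed. By mean level the order was 72, 48, 36, 12, 24 and 0 h from low to high, with overlap between all neighbours. Without the 6 deviating arrays the change was -0.49 at 48 h (adjusted p = 0.00341) and -0.83 at 72 h (adjusted p = 7.11e-06).

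IGFBP2, a carrier prominent in fetal tissue and in the nervous system, passed no comparison in the fit to all 24 arrays. It read 12.46, 11.52, 12.40 and 13.05 at 0 h, 12.12, 12.59, 12.81 and 11.65 at 12 h, then 12.30, 11.63, 12.62 and 12.97 at 24 h. It read 11.84, 12.50, 12.43 and 11.73 at 36 h, 11.78, 12.15, 12.49 and 11.31 at 48 h, then 11.66, 11.22, 12.43 and 12.13 at 72 h. The arrays of all times overlapped. The largest difference was -0.49 ± 0.32 at 72 h against 0 h (SE; adjusted p = 0.248 by limma), with a 95% interval of -1.16 to 0.17, so that a fall to below the 0 h level by more than 1 log2 unit and a small rise both lie within it. Leaving out the 6 deviating arrays gave -0.56 (adjusted p = 0.0767), and keeping them with a term for the set gave -0.49 with an adjusted p of 0.0412.

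IGFBP7, a weak IGF binder found around vessels and in matrix, stayed near background. It lay between 6.86 and 7.46 and was above background on 7 arrays. Its changes against 0 h ran between -0.14 at 48 h and 0.09 at 36 h, with none past the test. IGF1R, the receptor, read 6.52 at the lowest, 6.75 at the median and 7.16 at the highest, above background on 1 array, a 72 h replicate 2. Its mean was 6.88 ± 0.19 at 72 h and 6.70 ± 0.10 at 0 h (SD, n = 4 each), both not well above background, and no change was computed.

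Counted by time against 0 h, members passed in both directions from 24 h on. At 12 h, 0 members were higher and 1 lower (IGFBP4), beside 2.76% of all genes higher and 3.32% lower. At 24 h, 2 were higher (IGFBP3 and IGFBP5) and 1 lower (IGFBP4), beside 3.97% and 3.24% of all genes. At 36 h, 1 was higher (IGFBP3) and 1 lower (IGFBP4), beside 7.96% and 9.07%. At 48 h, 2 were higher (IGFBP3 and IGFBP5) and 2 lower (IGFBP4 and IGFBP6), beside 10.7% and 10.5%. At 72 h, 1 was higher (IGFBP5) and 2 lower (IGFBP4 and IGFBP6), beside 18.5% and 17.4%. With 6 members each count is small, and these comparisons share the 0 h arrays. At an unadjusted p under 0.05, 1 member was higher at 12 h, IGFBP3. The median change of the members at 72 h was -0.27 and that of all genes 0.01. The members ran from -1.07 (IGFBP4) to 1.96 (IGFBP5), and their median falls between IGFBP2 and IGFBP7, neither of them called. Without 36 h replicate 2 or without 0 h replicate 2, 2 members were lower at 36 h, and without any 1 of the 3 arrays named above for IGFBP3, 1 member was higher at 24 h.

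Of the steps between neighbouring times, that of 12 h against 0 h is counted above, and IGFBP4 passed there. From 12 h on, with NM_000598 taken for IGFBP3, the members that passed were IGFBP4 and IGFBP3, in 1 interval each and both downwards. The second IGFBP3 measurement passed in 2 of these later intervals and also at 12 h against 0 h, as given above. By limma, at 24 h against 12 h 0 members were higher and 0 lower (3.32% and 3.25% of all genes), and at an unadjusted p under 0.05 1 was higher, IGFBP5. At 36 h against 24 h, 0 were higher and 1 lower, IGFBP4 (6.90% and 7.46%), with IGFBP3 higher at an unadjusted p under 0.05. At 48 h against 36 h, 0 were higher and 0 lower (2.90% and 2.37%), with IGFBP5 higher and IGFBP7 lower at an unadjusted p under 0.05. At 72 h against 48 h, 0 were higher, also unadjusted, and 1 was lower, IGFBP3 (2.69% and 3.51%). Single omissions brought the number higher to 1 at 24 h against 12 h (without 12 h replicate 3), at 36 h against 24 h (without 36 h replicate 2 or 24 h replicate 2) and at 48 h against 36 h (without 36 h replicate 4).

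**Figure D2:**
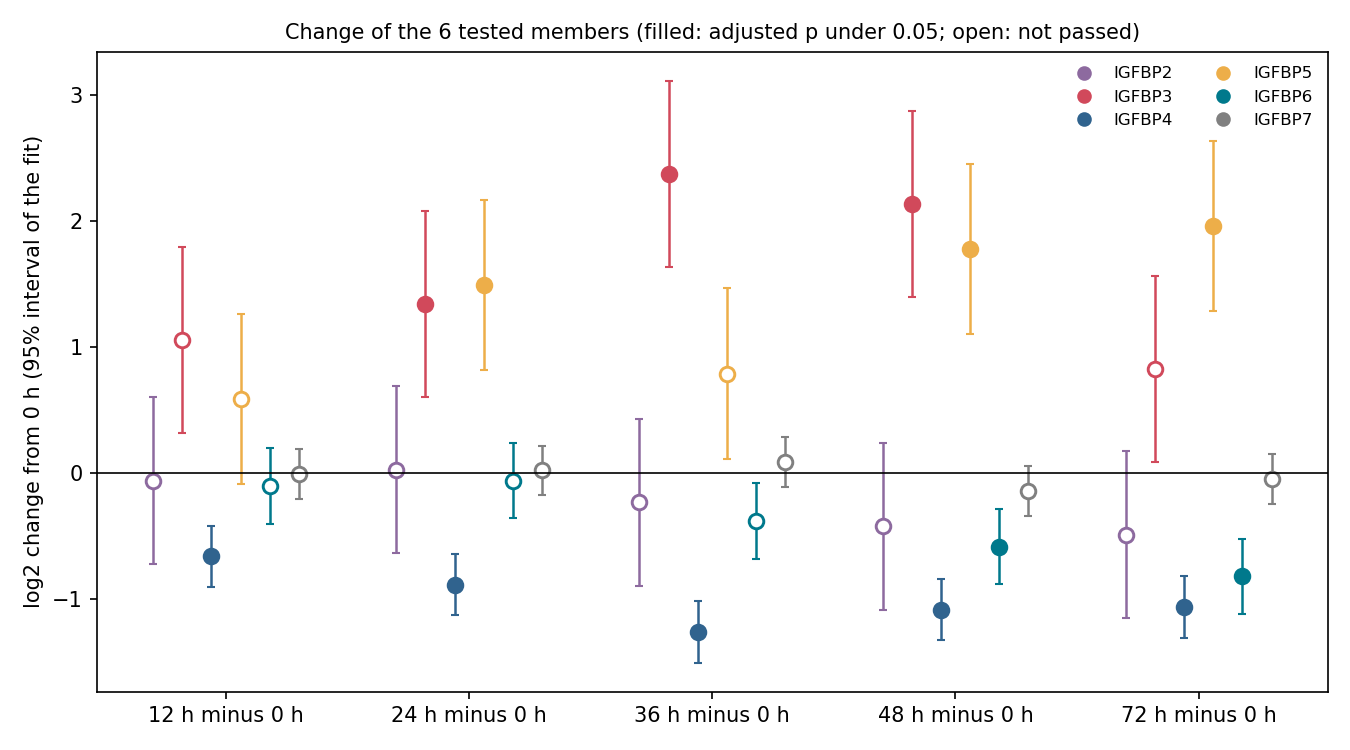
Log2 change from 0 h (vertical axis) of the 6 tested members at each later time (horizontal axis), with the 95% interval of the limma fit, filled where the adjusted p is under 0.05. IGFBP3 reaches 2.38 at 36 h and IGFBP5 1.96 at 72 h, IGFBP4 is filled below 0 at all 5 times, IGFBP6 lies below 0 at all 5 and is filled at 48 and 72 h, and IGFBP2 and IGFBP7 are open throughout.

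Several members differed between the 6 deviating arrays and the other 18. IGFBP3 and IGFBP5 averaged higher and IGFBP6 lower on them, the directions these genes also took over the times. IGFBP2, which passed no comparison of times, was lower on them, and IGFBP4, which fell over the times, differed little. IGFBP2 was lowest of its time on these arrays at 6 of 6 times, averaging 11.51 on them and 12.37 on the other 18. IGFBP6 was likewise lowest at 6 of 6, averaging 7.54 on them and 7.91 on the other 18. Of all genes tested, 1.43% were lowest on these arrays at all 6 times. IGFBP3 was highest at 5 of 6 times, averaging 9.85 on these arrays and 9.01 on the other 18, and 7.34% of all genes were highest at 5 or more times. IGFBP5 was highest at 3 times (mean difference 0.42), and IGFBP4 at 3 and lowest at 1 (mean difference 0.06). As the set was found from these data, its differences are given with no test.

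**Figure D3:**
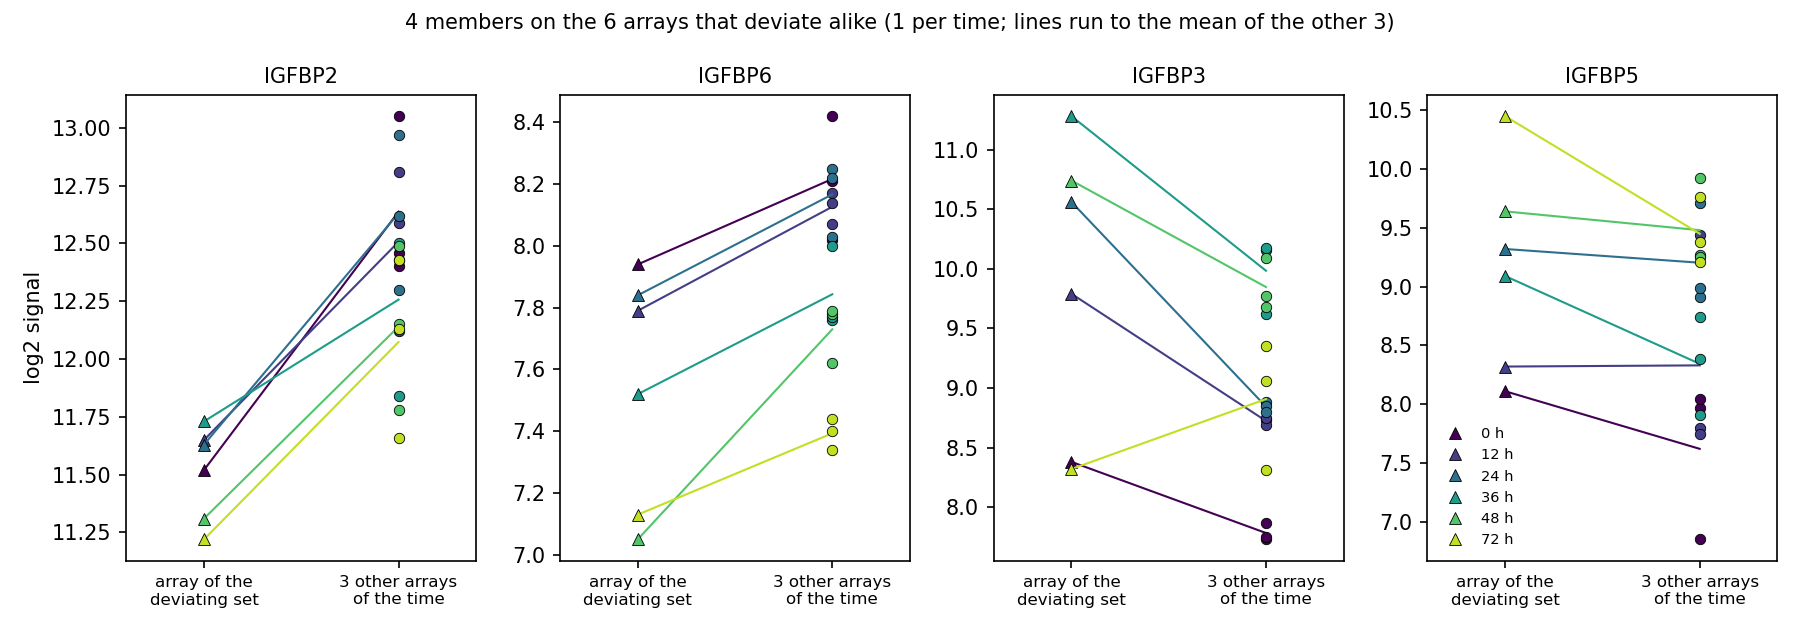
Log2 signal (vertical axis) of IGFBP2, IGFBP6, IGFBP3 and IGFBP5 on the deviating array of each time (triangles, left) and on the 3 other arrays of that time (points, right), coloured by hour, with a line to the mean of those 3. All 6 lines rise for IGFBP2 and IGFBP6, and 5 of 6 fall for IGFBP3.

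The same set shows in how the members vary together. Over the 24 arrays IGFBP2 and IGFBP6 correlated at r = 0.71, and their deviations from the time means at 0.76. IGFBP3 and IGFBP6 correlated at -0.44 over the arrays and at -0.64 in their deviations. For IGFBP3 and IGFBP4, r was -0.65 over the arrays and 0.15 in the deviations, the opposed levels being seen between times. These 24 points share their times and the deviating set, and the values are descriptions.

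Among genes above background on all 24 arrays, those most like each member by Pearson's r over the 24 arrays were taken. For IGFBP3 these were PLS3, an actin bundling protein (0.89), PPP1R1B (0.86) and SMPDL3B (0.85), with CYFIP2 most opposed (-0.85). For IGFBP4 they were FGFR4, a fibroblast growth factor receptor (0.92), THY1 (0.91) and NFE2L3 (0.90), with ACADVL most opposed (-0.88). IGFBP5 was most like BTG1, an antiproliferative factor (0.90), ELAPOR2 (0.89) and CCDC28A (0.89), and most opposed to KLRG1 (-0.90). IGFBP6 was most like PKM, a pyruvate kinase (0.94), BAMBI, a decoy receptor that dampens BMP and TGF-beta signals (0.93), and RIPOR2 (0.93), and most opposed to FST, the activin antagonist follistatin (-0.93). IGFBP2 was most like SMU1 (0.84), KDM6A, a histone demethylase (0.84), and P4HA2 (0.83), and most opposed to PCDHB5 (-0.88). IGFBP7 had JPH2 (0.72), SET (0.71) and INA (0.70) nearest and SH3GLB2 most opposed (-0.72). For IGFBP2 and SMU1 the likeness was larger in the deviations from the time means (0.93), whereas for IGFBP4 and THY1 it was smaller (0.42). IGFBP4 and ACADVL, opposed over the arrays, had 0.17 in the deviations. For IGFBP6 the deviations gave 0.84 with PKM, 0.85 with BAMBI and -0.82 with FST. All these genes are the extremes of 7968 or 7969 searched for each member, and the values are descriptions.

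The rest of the IGF pathway was read from a list of 50 genes, of which 46 had a row and 30 were tested. Its ligands were not well above background: IGF1 and IGF2 on 0 of 24 arrays and INS on 1. The receptors INSR and INSRR were not tested either, nor were the adaptor IRS4 and the imprinted RNA H19, the last 2 on 0 arrays. IGF2R, which takes up IGF2 for degradation, was above background on all 24 arrays, and its difference of 0.21 at 72 h against 0 h did not pass (adjusted p = 0.164). Of the 30 tested genes, none rose (0) and 1 fell at 12 h, beside 2.76% of all genes higher and 3.32% lower, with the same counts at 24 h (3.97% and 3.24%). At 36 h 2 rose and 5 fell (7.96% and 9.07% of all genes), as at 48 h (10.7% and 10.5%). At 72 h 4 rose and 5 fell, where 18.5% of all genes were higher and 17.4% lower. The list's median change at 72 h was 0.02 and that of all genes 0.01.

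PAPPA, the metalloprotease that cuts IGFBP4, and STC1, a glycoprotein that inhibits PAPPA, moved in opposite directions by 72 h. PAPPA read 6.78, 7.04, 7.07 and 6.87 at 0 h and lay between 6.79 and 7.13 at 12 and 24 h. It read 8.08, 6.80, 7.37 and 8.32 at 36 h, 8.26, 7.77, 8.29 and 8.59 at 48 h, then 7.84, 7.84, 8.03 and 8.43 at 72 h. No array at 0 h was above background, and all at 48 and 72 h were. Against 0 h, taken at background, PAPPA was at least 1.46-fold higher at 36 h (adjusted p = 0.0257 by limma), where 3 of 4 arrays were above background and the arrays overlapped, at least 2.19-fold higher at 48 h (adjusted p = 9.42e-05) and at least 1.92-fold higher at 72 h (adjusted p = 0.000284). The measured difference at 36 h was 0.70 over all arrays and 0.51 without the 6 deviating ones.

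STC1 read 9.74, 9.46, 9.74 and 10.06 at 72 h, against 10.58, 10.90, 10.95 and 11.46 at 0 h. All arrays at 72 h lay below all at 0 h, and the fall was by 1.22 ± 0.30 (SE; adjusted p = 0.00211 by limma). Its difference of 0.94 at 12 h did not pass (adjusted p = 0.0582). FOXO1, a transcription factor that AKT holds out of the nucleus, fell by 1.31 ± 0.14 at 72 h (adjusted p = 1.19e-07), and its mean of 9.98 at 48 h had been near the 10.01 of 0 h. FOXO3 rose by 0.45 at 72 h (adjusted p = 0.000143).

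Among the genes downstream of the receptor, INPP5D, a lipid phosphatase of blood cells, was lower at each later time and at least 1.54-fold lower at 72 h (adjusted p = 7.02e-06). INPPL1, a phosphatase of the same kind, was higher at 36 h (0.76), 48 h (0.58) and 72 h (0.46, adjusted p = 0.0143). Of the adaptors, IRS1 was lower at 36 h (-0.33) and 48 h (-0.30) with a difference of 0.03 at 72 h, SHC1 was lower at 72 h (-0.40), GRB10 was lower at 48 h (-0.40), and IRS2 passed at no time. PIK3R1, the regulatory subunit of PI3-kinase, was lower at 36 h (-0.83) and 48 h (-0.40).

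**Figure D4:**
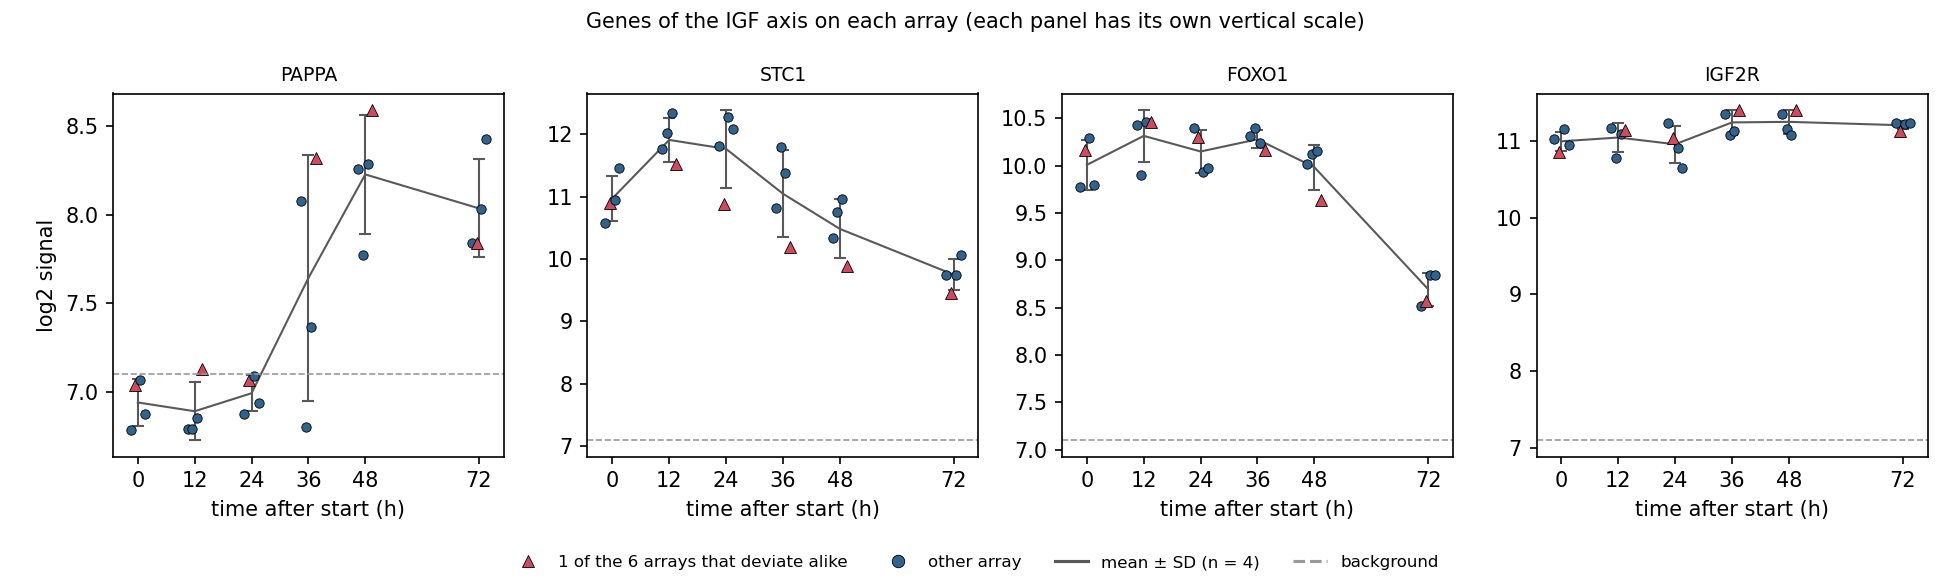
Log2 signal (vertical axis) against hours after the start (horizontal axis) of PAPPA, STC1, FOXO1 and IGF2R, drawn as for the family members. PAPPA lies above the dashed background of 7.10 on all arrays at 48 and 72 h, FOXO1 averages 8.69 at 72 h and 10.01 at 0 h, and IGF2R stays between 10.66 and 11.40.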

How the data were processed

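Per the labels' protocols, total RNA of H1 cells was extracted with TRIzol, digested with DNase and hybridised to Illumina bead arrays. The deposited log2 values of 24 arrays were used as the authors made them, whose background correction and normalization the sources used here do not state. A deposited table of scanner intensities was left aside, since none of its 24 intensity and 24 p-value column names could be matched to a sample. Of 37900 rows, 10159 shared identical values with another row, which left 32487 distinct ones. Gene names came from the platform annotation. Where a gene had several measurements, the brightest over the 24 arrays was tested.

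A mean for each time was fitted with limma 3.58.1 in R 4.3.3 (lmFit and eBayes, 18 residual degrees of freedom), and two-sided p-values were adjusted (Benjamini-Hochberg, each comparison on its own, threshold 0.05). The fit was tested on simulated data. Folds against a time with all 4 arrays below background are bounds taken against the background. The members, the pathway and marker lists and the rules were chosen with earlier results of these data known. Named genes are all members, 10 fixed pathway genes (IGF1, IGF2, INSR, IGF2R, PAPPA, IRS1, IRS2, IRS4, GRB10 and H19), the 6 called pathway genes with the largest change at 72 h, the 3 genes most like and the 1 most opposed to each member, and marker genes. STC1, FOXO1, INPP5D, INPPL1, FOXO3 and SHC1 came from the rule of size. PIK3R1, INS and INSRR lie outside these rules and were chosen after their values were seen. Alternatives covered the filter, the background, the scaling, the variance prior, array weights, the arrays fitted and the replicate number as a block. The term for the 6 deviating arrays was chosen after seeing the data.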

Additional observations from a re-analysis of the deposited data

Results flagged for a closer look

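In each of 48 groups of 4 arrays, 1 measurement at 1 time, the highest or lowest array was set against the other 3. Chance marks about 1 in 20 such groups, and 5 were marked. IGFBP3 (NM_000598) read 9.79 on replicate 4 at 12 h, where the other 3 lay between 8.69 and 8.75, and 10.56 on replicate 2 at 24 h, where they lay between 8.80 and 8.88. IGFBP3 (NM_001013398) read 9.73 on replicate 4 at 48 h, with the others between 9.25 and 9.32. These 3 arrays belong to the 6 that deviate alike. IGFBP5 read 6.85 on replicate 3 at 0 h, below background, with the others between 7.97 and 8.11, and IGFBP7 read 6.91 on replicate 3 at 24 h, with the others between 7.09 and 7.12.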

How the results depend on the processing

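Of the changes recomputed under the alternatives (each member at 72 h against 0 h, and the called changes at other times), none changed direction. The F test kept its count of 4 members throughout, and the changes of IGFBP4, IGFBP5 and IGFBP6 at 72 h passed in every one. Numbers of members called moved as follows. Members higher at 12 h against 0 h were 1 with the mean of a gene's measurements, without the 6 deviating arrays, with a term for them or with only the 2 times compared in the fit, and members lower were 0 with only replicates 3 and 4. Members higher at 24 h were 0 with replicates 1 and 2 or 3 and 4 alone and 1 with the robust fit or array weights (1 to 2 leaving out 1 array). Members lower at 36 h were 2 with array weights, with the term for the set or without those arrays (1 to 2 leaving out 1 array), and at 48 h 1 with replicates 1 and 2 or 3 and 4 alone. Members higher at 72 h were 2, IGFBP3 joining, with only replicates 3 and 4 (1.39, adjusted p = 0.0218), with the term for the set (0.82, adjusted p = 0.0115), without those arrays (1.12, adjusted p = 9.7e-05) and with only the 2 times fitted (0.82, adjusted p = 0.0104); its change ran from 0.63 to 0.97 leaving out 1 array. IGFBP2 at 72 h passed with the term for the set (-0.49). Between neighbouring times, 1 member was higher at 24 h against 12 h with replicates 1 and 2 alone or array weights, at 36 h against 24 h with the mean of measurements, array weights, replicates 3 and 4 alone or either treatment of the set, and at 48 h against 36 h with array weights, the term for the set or only the 2 times fitted (0 to 1 in each leaving out 1 array). Members lower at 36 h against 24 h were 2 with either treatment of the set and 0 with replicates 1 and 2 or 3 and 4 alone, and at 72 h against 48 h 0 with either pair of replicates or the robust fit (0 to 1 in both leaving out 1 array). The pathway list had 0 lower at 12 and 24 h and 2 at 48 h with the mean of measurements, and 3 at 24 h with 75th percentile centring. The second IGFBP3 measurement gave levels of 7.56 at 0 h, 9.55 at 36 h, 9.40 at 48 h and 8.21 at 72 h. The cause of these moves was not tested.

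The deviations of same-numbered arrays of different times had r over 0.1 in 29 of 60 pairs (median 0.08, between -0.35 and 0.58), against 52 of 180 pairs of arrays with other numbers (median -0.08). The labels name nothing shared by a replicate number, and it was used as a block only as an alternative. The rule behind this choice asked that every same-numbered pair pass 0.1. Arrays with something in common could fail so strict a rule, and whether same-numbered arrays share anything was not tested. The replicate block gave 1 member higher at 36 h against 24 h and 2 pathway genes lower at 24 h, and at 72 h against 0 h it left 1 member higher and 2 lower.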
